A study of Rattus norvegicus with 12 samples.

Results

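The liver response common to naproxen and NO-naproxen was described by taking the 8 rats that had eaten either drug as 1 treated group against the 4 rats on control diet, with membership taken from the sample titles. These 12 rats are all the animals of the series, and each gave 1 liver and 1 whole-transcript expression array. All were of the Sprague Dawley strain, lived in single cages with food and water at will under a 12 h light and 12 h dark cycle, and were on their diet for 7 days. The treated group held 4 rats fed naproxen at 400 mg/kg diet and 4 fed NO-naproxen at 550 mg/kg diet, so the doses of the drugs differed. The controls ate the diet with no drug. Neither age, sex nor the hour of tissue collection is given in these sources.

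Naproxen is a nonsteroidal anti-inflammatory drug that blocks both cyclooxygenases, the enzymes that start prostaglandin synthesis. NO-naproxen is a derivative of naproxen that carries a group releasing nitric oxide, a gas that activates guanylate cyclase. The liver clears naproxen through cytochrome P450 enzymes and by joining it to glucuronic acid. Liver transcripts also follow feeding, glucocorticoids and the circadian clock, in which Clock and Bmal1 activate the Per and Cry genes, whose products inhibit them, while Nr1d1 represses Bmal1. The pooled comparison asks which transcripts differed from control whichever of the drugs was eaten.

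Each array gave 19418 probe set intensities, analysed as log2(intensity + 16) and called log2 signal here. Between treated and control livers a log2 fold change had a standard error of 0.18 at the median, which sets the precision that 12 arrays allow. Arrays were unequal in how widely their signals were spread, measured as the interquartile range over all probe sets. This spread was 2.35 ± 0.18 log2 units in treated livers (SD, n = 8, range 2.07 to 2.62) and 2.10 ± 0.19 in control livers (SD, n = 4). The individual controls measured 2.09, 2.37, 1.996 and 1.94 from control 1 to control 4, so control 2 was as wide as a typical treated array and controls 3 and 4 were narrower than every other array. The difference of 0.25 log2 units gave p = 0.0566 in a 2-sided exact permutation test, whose smallest possible p is 0.00404, and 0.170 after Benjamini-Hochberg adjustment over 3 array measures. Without control 2 the difference was 0.34 (exact permutation p = 0.0242), and without NO-naproxen 3 it was 0.29 (exact permutation p = 0.0303). The share of probe sets with an intensity under 16 averaged 8.42% in treated and 6.84% in control arrays (exact permutation p = 0.162), and control 2 alone of the controls stood near the treated mean, at 9.37%. Since the spread moved with the groups, results are given without it and, for the counts, the lists and the genes it moved most, also with it as a covariate.

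**Figure D1:**
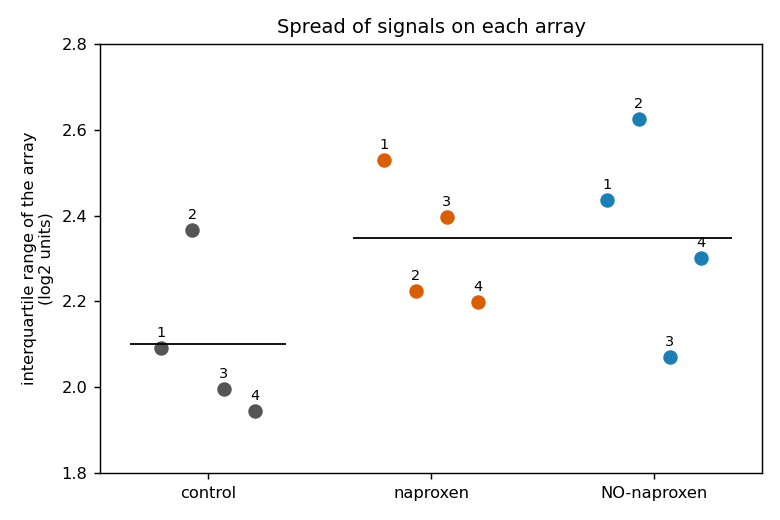
Interquartile range of log2(intensity + 16) over all probe sets (y axis, log2 units) for each of the 12 arrays, by diet, with replicate numbers beside the points; the lines mark the mean of the 4 controls (2.10) and of the 8 treated arrays (2.35). Control 2, at 2.37, sits among the treated arrays, and NO-naproxen 3, at 2.07, among the controls.

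The tissue matched its label. Dim signal was bounded by the 95th percentile of the probe sets of olfactory receptors, genes of the sense of smell, at 6.44 log2 units, and all 14 measured hepatocyte markers lay above it. The mean log2 signal of these markers was between 12.64 and 12.94 in treated livers and between 12.67 and 12.97 in controls. Their median log2 fold change was -0.0070, with 7 of 14 above 0, and 0.085 after centring the array medians.

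With limma and Benjamini-Hochberg adjustment, 0 of 19418 probe sets (0%) differed between treated and control livers, and the smallest adjusted p was 0.0992. At an unadjusted p under 0.05 there were 3267 probe sets (16.8%), of which 1170 (6.03%) were higher and 2097 (10.8%) lower in treated livers. The criterion stated by the study is at least a 1.5-fold difference at an unadjusted p under 0.05, and it was met by 806 probe sets (4.15%), 172 higher (0.886%) and 634 lower (3.27%). Over all probe sets 48% had a log2 fold change above 0. That split depended on scaling, being 270 to 455 after quantile normalization and 451 to 315 after centring the array medians. The treated and control arrays did not overlap for 184 probe sets (0.948%), 115 of them higher (0.592%) and 69 lower (0.355%). Both conditions together were met by 42 (0.216%), 25 higher (0.129%) and 17 lower (0.0875%).

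With the array spread as a covariate, again no probe set passed the adjusted limma test (0%, smallest adjusted p = 0.119), and 912 (4.7%) had an unadjusted p under 0.05, 488 higher (2.51%) and 424 lower (2.18%), with 49.9% of log2 fold changes above 0. The share of 4.7% is no larger than a p threshold of 0.05 would give if no probe set differed. The study's criterion was then met by 178 probe sets (0.917%), 88 higher (0.453%) and 90 lower (0.463%). Of the 172 higher probe sets 34 (19.8%) still met it with the covariate, against 35 of the 634 lower (5.52%). The lower side was also dimmer, with 50.6% of its probe sets in the olfactory receptor range against 15.7% of the higher and 38.0% of all. By signal level, the median log2 fold change was -0.14 in the dimmest 4855 probe sets and 0.15 in the brightest 4855, and -0.020 and 0.017 with the covariate. The excess of lower over higher probe sets was thus present without the covariate and absent with it.

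The reach of the comparison rested on single control arrays. Without control 2, 497 probe sets passed the adjusted limma test, 69 higher and 428 lower, and 2618 met the study's criterion. The adjustment depends on how many other probe sets have a small p, so passing there need not mean a stronger difference. For Dusp1, Csad, Nr1d1, Rgs16, Upp2 and Zbtb16, described below, the unadjusted p was larger without control 2 than with all arrays. Of those 428 lower probe sets 10.1% had an unadjusted p under 0.05 with the array spread in the fit of all 12 arrays, against 52.2% of the 69 higher, and 39.3% of the lower lay in the olfactory receptor range. Without control 3 or control 4, whose spread was narrowest, 386 and 356 probe sets met the criterion, and without both 196 did, 103 higher and 93 lower. Leaving out NO-naproxen 3 gave 1469. Without control 1, 5 probe sets passed the adjusted test, those of Rgs16, Upp2, Zbtb16, Depp1 and Per2, which are described with the clock genes. For all 5, control 1 was the control nearest the treated livers. Leaving it out therefore enlarges the difference by construction, and passing then is no independent evidence. The number without overlap was 412, 279, 444, 1582 and 311 without NO-naproxen 3, naproxen 3, control 1, control 2 and control 3 respectively.

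**Figure D2:**
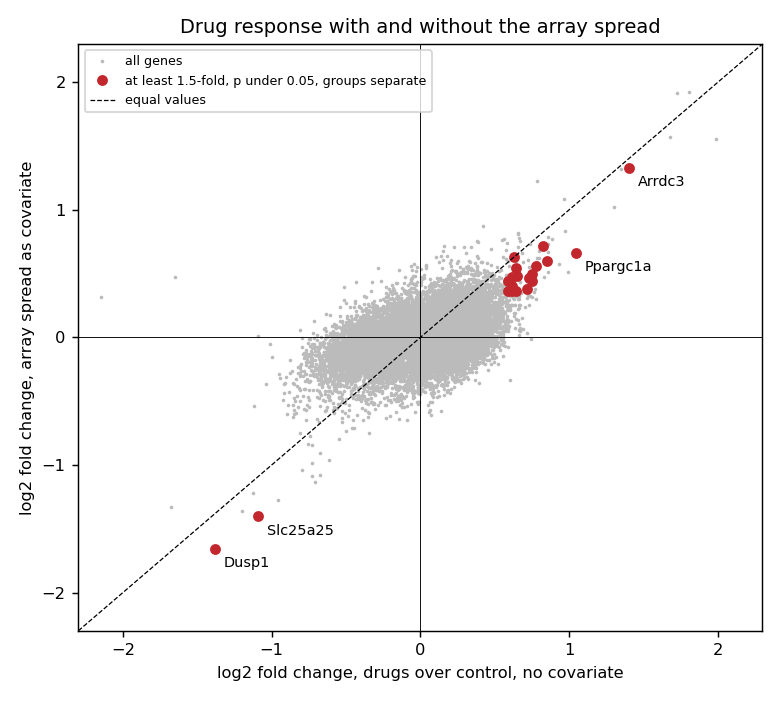
Log2 fold change of each named gene (1 probe set per gene), both drugs over control, from limma without a covariate (x axis) and with the array interquartile range as covariate (y axis); red points are the 21 genes above the olfactory receptor range with an unadjusted p under 0.05, at least a 1.5-fold difference and no overlap between treated and control arrays. Arrdc3, Dusp1 and Slc25a25 keep or exceed most of their size on the y axis, while most grey points lie closer to 0 there than on the x axis.

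Among the 9833 named genes above the olfactory receptor range the median log2 fold change was 0.095, and 62.4% were above 0. At an unadjusted p under 0.05, 9.05% were higher and 8.29% lower, and 93 (0.946%) were higher without overlap against 23 (0.234%) lower. These shares are the background against which the genes below are read. In the fit with the array spread the median was 0.0099, with 52.2% above 0, 2.56% higher and 1.64% lower at an unadjusted p under 0.05. Genes that met the study's criterion with separate groups numbered 19 on the higher and 2 on the lower side, and none of them passed the adjusted test over all probe sets.

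Arrdc3 (Entrez Gene 309945), an arrestin-family adaptor that helps to remove beta-adrenergic receptors from the cell surface, had the smallest p of the higher genes. Its log2 signal in the 8 treated livers ran from 10.97 through a median of 11.65 to 12.12, and the controls measured 9.67, 10.88, 10.19 and 10.18. The lowest treated liver, naproxen 1, stood just above control 2, and the other treated livers were clear of all controls. The log2 fold change was 1.40 ± 0.22 (SE), a 2.64-fold difference (limma, adjusted p = 0.0992), and 1.33 ± 0.26 with the array spread. It passed the adjusted test without naproxen 1 (1.50, adjusted p = 0.0370), without control 2 (1.62, adjusted p = 0.00494), with array weights (1.55, adjusted p = 0.0118) and with a trended, robust variance (adjusted p = 0.0276). Naproxen 1 was the treated liver nearest the controls, and control 2 the control nearest the treated livers. Leaving out either enlarges the difference by construction, so passing then is no independent evidence. The log2 fold change was 1.30 for naproxen and 1.50 for NO-naproxen against the same controls.

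Hykk (Entrez Gene 300723), the hydroxylysine kinase of lysine breakdown, measured 9.17, 9.27 and 9.81 (lowest, median and highest treated) against 8.68, 8.77, 8.44 and 8.16 in the controls. Its gap between groups, 0.40 log2 units, was the widest on the higher side among the genes described. The log2 fold change was 0.85 ± 0.16 (adjusted p = 0.184) and 0.60 ± 0.15 with the array spread. Ppargc1a (Entrez Gene 83516), the coactivator PGC-1alpha that drives mitochondrial genes and fasting gluconeogenesis, measured 8.65, 9.04 and 9.63 in treated livers against 8.57, 8.49, 7.16 and 7.87. All 8 treated livers were above the controls, but controls 1 and 2 lay close below the lowest of them while control 3 was far under. Its log2 fold change of 1.04 ± 0.25 (adjusted p = 0.273) was 0.66 ± 0.25 with the array spread. It was 0.76 without control 3 and 1.20 without control 2, where it passed the adjusted test (adjusted p = 0.0498). Lpin2 (Entrez Gene 316737), a phosphatidate phosphatase that makes diacylglycerol, measured 9.78, 10.27 and 10.63 against 9.51, 9.54, 9.19 and 9.44, a log2 fold change of 0.78 ± 0.17 (0.56 ± 0.18 with the array spread).

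The other higher genes that the naming rule took had no overlap between the groups either. Apool, a protein of the mitochondrial cristae, had a log2 fold change of 0.59 ± 0.14, with treated livers from 8.32 to 8.84 and controls from 7.86 to 8.09. Hyal3, a member of the hyaluronidase family, had 0.82 ± 0.17, and its controls spanned only 8.32 to 8.61 against 8.92 to 9.71 in treated livers. Hmgn2, a nucleosome-binding protein, had 0.63 ± 0.15 both without the array spread and, with an SE of 0.17, with it. Adcy10, the bicarbonate-sensitive soluble adenylyl cyclase, had 0.75 ± 0.18, but its lowest treated liver at 8.21 barely cleared controls 1 and 2 at 8.17 and 8.18, and it had 0.50 ± 0.19 with the array spread. Fnbp1, which bends membranes during endocytosis, Lcp2, an adaptor of blood cell receptors, Phaf1, a protein of autophagosome formation, and Ndrg1, a stress-responsive gene, had 0.72, 0.73, 0.75 and 0.65. With the array spread these were 0.38, 0.46, 0.44 and 0.48, so the spread took up more of them than of Arrdc3 or Hmgn2. Tdo2 (Entrez Gene 64206), the enzyme that opens the tryptophan ring, was taken by the same rule in the fit with the array spread. Its treated livers lay between 11.80 and 12.01, the narrowest range of any gene described here, and the controls measured 11.52, 11.03, 11.45 and 11.48. The log2 fold change was 0.56 ± 0.13 and 0.63 ± 0.14 with the array spread, and 0.45 without control 2, which was the lowest control.

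On the lower side Dusp1 (Entrez Gene 114856), a phosphatase that switches off MAP kinases and an immediate early gene, had the widest gap between the groups of the genes described. The 8 treated livers ran from 8.96 through a median of 9.76 to 10.45, and the controls measured 11.15, 11.20, 10.85 and 11.37. The groups were 0.40 log2 units apart at their nearest. The log2 fold change was -1.38 ± 0.24, which put treated livers 2.61-fold below control (adjusted p = 0.120). With the array spread it was -1.66 ± 0.26 (adjusted p = 0.119), and leaving out each array in turn moved it only between -1.48 and -1.27 in the fit without the spread. It passed the adjusted test without control 2 (adjusted p = 0.0498), after quantile normalization (-1.47, adjusted p = 0.0295) and with a trended, robust estimate of the variance (adjusted p = 0.0354). Without control 2 its unadjusted limma p rose, however, from 1.9e-05 to 7.0e-05. In the fit with the array spread it also passed without naproxen 4 (-1.88, adjusted p = 0.00647). Naproxen 4, at 10.37, was the naproxen liver nearest the controls, and leaving it out enlarged the difference. The drugs gave -1.39 and -1.38, with a difference between them of 0.0074 (95% interval -0.59 to 0.60).

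Slc25a25 (Entrez Gene 246771), a calcium-regulated carrier of ATP and phosphate in the inner mitochondrial membrane, was the other lower gene that met the criterion without overlap. Treated livers measured 8.67, 9.74 and 10.34 and controls 11.23, 10.66, 10.45 and 10.61. The lowest control, control 3, stood 0.11 log2 units above the highest treated liver. Across the 12 livers the log2 fold change was -1.09 ± 0.28 (adjusted p = 0.273) and -1.40 ± 0.31 with the array spread. Csad (Entrez Gene 60356), the decarboxylase of taurine synthesis, belongs to the list of amino acid catabolism and overlapped in 1 liver. Its treated values were 8.79, 9.15 and 10.13 against 10.66, 10.49, 10.34 and 10.04, and naproxen 4 reached above control 4. On the log2 scale the fold change was -1.13 ± 0.22 (adjusted p = 0.236) and -1.22 ± 0.27 with the array spread. It passed without control 2 (-1.09, adjusted p = 0.0498), and in the fit with the array spread without naproxen 4 (-1.48, adjusted p = 0.0237). Naproxen 4 was the treated liver nearest the controls. Leaving it out enlarges the difference by construction, so passing then is no independent evidence. The unadjusted limma p of Csad was larger without control 2, 0.00043 against 0.00011.

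**Figure D3:**
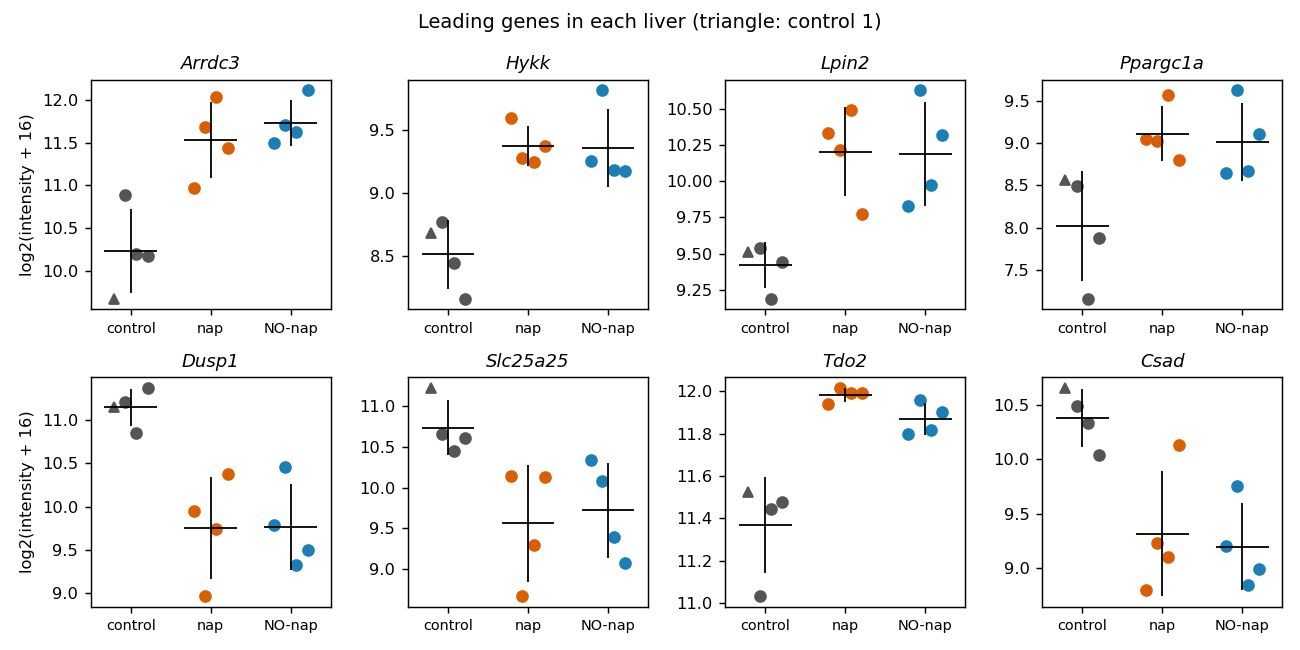
Log2(intensity + 16) of 8 genes in each liver (y axis, log2 units; scales differ between panels), by diet; points are livers, the triangle is control 1, horizontal lines are means and vertical lines SDs of 4 livers. Treated and control livers do not overlap for any of these genes except Csad, where 1 naproxen liver at 10.13 lies above the lowest control at 10.04.

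The 250 bases before the start of these genes were searched for short motifs, and the promoters below are shown because they hold a match and belong to genes with large differences. Of the 21 genes that met the study's criterion with separate groups, 16 had a promoter in the RefSeq table (build GRCr8, the first listed start of each gene). The cyclic AMP response element TGACGTCA, which reads the same on both strands and is bound by CREB, occurred in 3 of the 16, Dusp1, Slc25a25 and Ppargc1a, and in 1.7% of all 27457 genes searched. It began 124, 158 and 181 bases before the start. The genes stood on opposite sides, Dusp1 and Slc25a25 lower and Ppargc1a higher, so the motif did not go with a direction. This was 1 of 10 motifs searched on both strands, and the motif and promoters shown were chosen after the matches were seen. A match describes letters in the window and is no evidence of binding. The element is in capitals; the windows are chr10:17184603-17184852 on the plus strand for Dusp1, chr3:36116582-36116831 on the minus strand for Slc25a25 and chr14:63634058-63634307 on the plus strand for Ppargc1a.
Dusp1: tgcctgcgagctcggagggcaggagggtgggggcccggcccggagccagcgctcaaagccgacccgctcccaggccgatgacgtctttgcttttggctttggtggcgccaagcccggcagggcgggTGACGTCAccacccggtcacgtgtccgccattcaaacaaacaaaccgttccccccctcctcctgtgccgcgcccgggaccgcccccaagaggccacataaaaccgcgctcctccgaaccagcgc
Slc25a25: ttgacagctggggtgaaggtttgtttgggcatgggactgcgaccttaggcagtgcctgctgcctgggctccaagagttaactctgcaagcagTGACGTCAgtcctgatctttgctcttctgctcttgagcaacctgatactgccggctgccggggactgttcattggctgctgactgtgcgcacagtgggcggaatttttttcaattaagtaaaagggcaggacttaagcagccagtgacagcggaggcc
Ppargc1a: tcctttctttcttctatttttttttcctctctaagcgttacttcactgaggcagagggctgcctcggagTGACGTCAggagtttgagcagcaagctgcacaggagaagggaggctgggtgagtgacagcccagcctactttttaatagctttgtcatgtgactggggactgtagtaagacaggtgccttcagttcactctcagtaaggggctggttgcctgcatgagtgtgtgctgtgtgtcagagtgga

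In these windows E-boxes, CACGTG, were in 3 of the 16 (5.79% of all genes), CCAAT in 5 (34.3%), the ROR half-site AGGTCA in 1 (13.7%) and the cyclic AMP half-site TGACG, which the full element contains, in 6 (19%). The TATA box TATAAA was in 1 (13.1%) and the serum response core in 10 (65.4%). The D-box TTATGTAA (0.816%), the sterol element TCACNCCAC (0.976%) and the glucocorticoid response element (0.364%), were in 0 of the 16.

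Clock genes differed between treated and control livers in both directions. Control 1 did not group with the other controls for Nr1d1, Per2, Cry1 and Per1, while for Npas2 it lay among them. Of 12 measured core clock genes 3 were higher and 2 lower at an unadjusted p under 0.05, and none passed the adjusted test. The median log2 fold change was -0.018, -0.16 with the array spread and 0.074 after centring the array medians. Nr1d1 (Entrez Gene 252917), the repressor REV-ERB alpha, measured 8.09, 9.37 and 10.53 in treated livers and 8.49, 7.42, 7.25 and 7.51 in controls. Only NO-naproxen 1 overlapped, lying below control 1 and above the other 3 controls. Across the 12 livers the log2 fold change was 1.73 ± 0.35 (3.31-fold, adjusted p = 0.236), 1.91 ± 0.41 with the array spread and 2.0 without control 1 (adjusted p = 0.132). Without control 2 it was 1.64 and passed (adjusted p = 0.0498), although its unadjusted limma p rose from 0.00012 to 0.00049. Per2 (Entrez Gene 63840), a repressor of Clock and Bmal1, measured 6.21, 7.08 and 7.69 in treated livers against 7.15, 8.60, 8.55 and 8.41. Without control 1, which stood in the middle of the treated livers, the groups were apart. Its log2 fold change was -1.20 ± 0.27 (adjusted p = 0.273), -1.36 ± 0.32 with the array spread and -1.54 without control 1, where it passed the adjusted test (adjusted p = 0.0367).

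Cry1, the partner of Per2, followed the same pattern, with treated livers at 8.0, 8.46 and 8.80 and controls at 8.54, 9.63, 9.17 and 9.23. Its log2 fold change was -0.73 ± 0.21, and -0.99 ± 0.22 with the array spread. Npas2, a relative of Clock, had 0.44 ± 0.18, but 0.10 ± 0.15 with the array spread and 0.27 without control 4. Per1 and Per3, named after their values were seen, did not move with Per2. Per1 measured 7.75, 8.15 and 9.22 against 9.08, 7.05, 7.29 and 6.73, a log2 fold change of 0.77 ± 0.36 that was 1.28 without control 1 and 0.49 without control 4. Per3 had -0.25 ± 0.22 (-0.15 without control 1), and its treated livers lay on both sides of the controls. For Bmal1, the target of Nr1d1, the log2 fold change was 0.065, and -0.12 with the array spread. Of 11 measured clock output genes 0 were higher and 1 lower at an unadjusted p under 0.05, with a median of -0.21 (-0.22 with the array spread) and 3 above 0. The lower gene was Tspan4, a tetraspanin, at -0.32 ± 0.14, with no overlap between the groups. Bhlhe40, a repressor of the clock, had -0.35 ± 0.17 (-0.52 ± 0.19 with the array spread) and Dbp, a PAR bZIP activator, -0.30 ± 0.19.

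Of 10 core clock genes with a promoter in the RefSeq table, Per2 held the D-box TTATGTAA, to which the PAR bZIP factors Dbp, Tef and Hlf bind, 192 bases before its start. This motif occurred in 0.816% of all genes. The promoter is shown because it holds this match and Per2 had the largest lower value of the clock genes. This was 1 of 10 motifs searched and was chosen after the matches were seen. Per2 was the only 1 of the 10 clock genes with a D-box, only Bmal1 held the ROR half-site, and E-boxes were in 0. A match is no evidence of binding. The D-box is in capitals and the window is chr9:99496994-99497243 on the minus strand (RefSeq, GRCr8).
Per2: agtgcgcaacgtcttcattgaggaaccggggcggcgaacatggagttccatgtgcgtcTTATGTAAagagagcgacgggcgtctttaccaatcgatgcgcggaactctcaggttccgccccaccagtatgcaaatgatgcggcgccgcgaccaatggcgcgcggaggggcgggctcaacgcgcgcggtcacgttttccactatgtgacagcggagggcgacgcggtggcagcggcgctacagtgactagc

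Rgs16, Upp2 and Depp1, named after their values were seen, also had control 1 near or among the treated livers. Each passed the adjusted test without control 1, and also without control 2 (adjusted p = 0.0498 for all 3). Passing without control 1 is no independent evidence, since the control nearest the treated livers was left out. Without control 2 the unadjusted p of Rgs16 and Upp2 was larger than with all arrays, and that of Depp1 smaller. Rgs16 (Entrez Gene 360857), a brake on G protein signalling, measured 10.47, 11.41 and 12.09 in treated livers and 10.74, 9.49, 8.41 and 8.55 in controls. Its log2 fold change of 1.99 ± 0.36, or 3.96-fold, was the largest of the named genes above the olfactory receptor range (adjusted p = 0.176), 1.56 ± 0.40 with the array spread and 2.47 without control 1 (adjusted p = 0.0108). Upp2 (Entrez Gene 295620), the liver uridine phosphorylase, measured 9.14, 10.16 and 10.84 against 9.38, 7.93, 7.90 and 8.01. The other controls lay close together, and control 1 stood apart above them. On the log2 scale the fold change was 1.81 ± 0.32 (adjusted p = 0.172), 1.92 ± 0.39 with the array spread and 2.17 without control 1 (adjusted p = 0.0188). Depp1 (Entrez Gene 500300), a target of FOXO factors in fasting, measured 8.20, 8.62 and 9.07 against 8.22, 7.72, 6.84 and 6.52. For this gene the log2 fold change was 1.30 ± 0.27 (adjusted p = 0.236), 1.02 ± 0.29 with the array spread and 1.60 without control 1 (adjusted p = 0.0367). For each of the 3, 7 of the 8 treated livers were above every control.

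**Figure D4:**
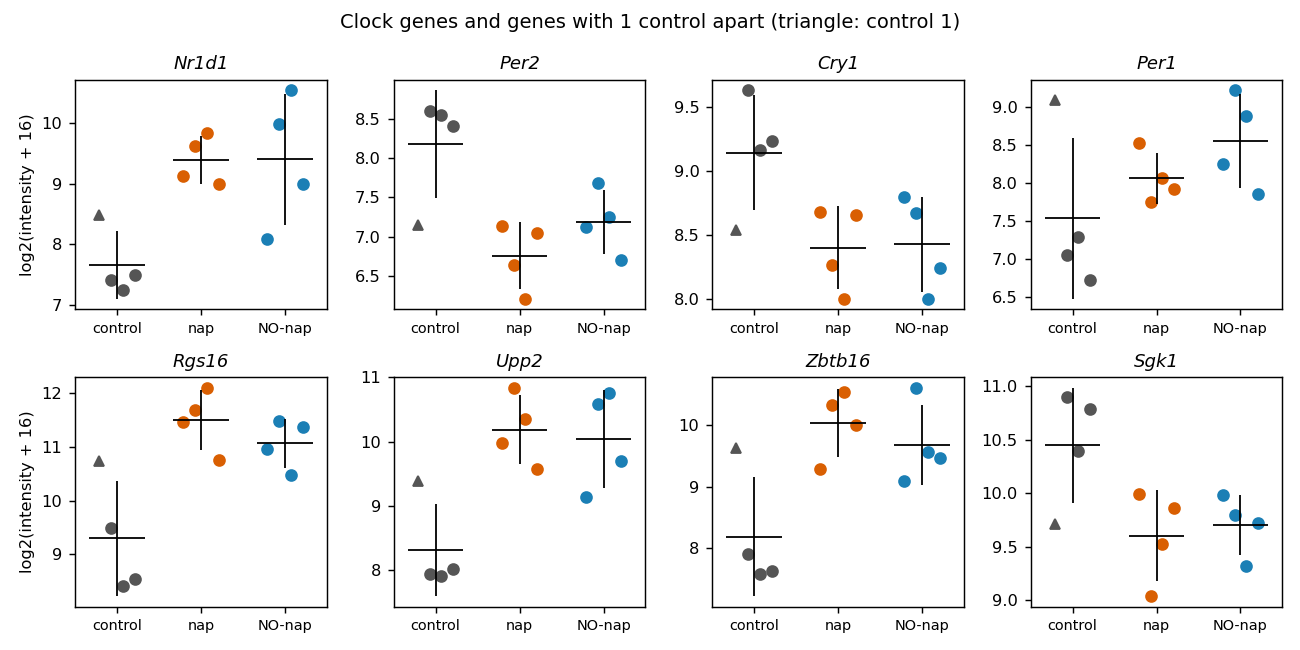
Log2(intensity + 16) of 4 clock genes and of Rgs16, Upp2, Zbtb16 and Sgk1 in each liver (y axis, log2 units; scales differ between panels), by diet; points are livers, the triangle is control 1, horizontal lines are means and vertical lines SDs of 4 livers. Control 1 lies within the range of the treated livers in all 8 panels, for example at 7.15 for Per2, where the other controls lie between 8.41 and 8.60.

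Glucocorticoid targets were split in the same way. Of 11 measured genes 3 were higher and 1 lower at an unadjusted p under 0.05, with a median log2 fold change of -0.075 (0.017 after centring the array medians). Zbtb16 (Entrez Gene 353227), a transcription factor that glucocorticoids induce, measured 9.09, 9.78 and 10.61 in treated livers and 9.63, 7.90, 7.57 and 7.63 in controls. Between the groups the log2 fold change was 1.68 ± 0.36 (adjusted p = 0.273), 1.57 ± 0.44 with the array spread and 2.16 without control 1, where it passed (adjusted p = 0.0188), as it did without control 2 (1.59, adjusted p = 0.0498). Leaving out control 2 raised its unadjusted limma p, from 0.00024 to 0.00093. Sgk1, a kinase induced by the same hormones, stood on the other side, with treated livers at 9.04, 9.76 and 9.99 and controls at 9.71, 10.90, 10.40 and 10.78. Treated over control, the log2 fold change was -0.79 ± 0.22, and -1.04 ± 0.24 with the array spread. Fkbp5, the chaperone that damps the glucocorticoid receptor, had 0.71 ± 0.25, and Klf9, a transcription factor, 0.48 ± 0.20. For both of these control 1 lay among the treated livers, at 8.08 and 10.28, above the other controls.

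Immediate early genes, which respond within minutes to growth factors and stress, did not move as a group. Of 22 measured members 2 were higher and 1, Dusp1, lower at an unadjusted p under 0.05, and the median log2 fold change was 0.013 (-0.0071 after quantile normalization). Egr1 (Entrez Gene 24330), a zinc finger factor, measured 7.34, 8.97 and 10.24 in treated livers and 7.71, 7.69, 7.51 and 7.74 in controls. The controls thus lay within a narrow band while treated livers were spread widely, and NO-naproxen 1 lay below every control. Across the 12 livers the log2 fold change was 1.35 ± 0.39 (adjusted p = 0.273) and 1.32 ± 0.48 with the array spread. Klf6 had 0.61 ± 0.19, but 0.26 ± 0.17 with the array spread, and Junb 0.45. On the log2 scale the fold changes of Fos and Jun, the subunits of AP-1, were 0.13 and 0.21, and that of Jun was -0.12 with the array spread.

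Genes of fasting and insulin response stood on both sides. Of 21 measured genes 4 were higher and 1 lower at an unadjusted p under 0.05, with a median of 0.087, and -0.015 with the array spread. Beside Ppargc1a, the insulin receptor Insr had 0.45 ± 0.17 and the transcription factor Foxo3 0.36 ± 0.16, and both were smaller with the array spread, at 0.16 ± 0.16 and 0.20 ± 0.17. Without control 4 Foxo3 had 0.22. Pklr, the pyruvate kinase of liver glycolysis, was the lower gene at -0.38 ± 0.14, and -0.41 ± 0.16 with the array spread. The enzymes of gluconeogenesis Pck1 and G6pc1, the latter outside the naming rule, had 0.21 and -0.048.

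Fatty acid oxidation had higher members only at the unadjusted threshold. Of 24 measured genes, 6 were higher and 0 lower at an unadjusted p under 0.05, which is 25% of the list against 9.05% of the named genes above the olfactory receptor range. The median was 0.10, close to the 0.095 of those genes, with 18 above 0, 0.11 with the array spread and 0.022 after quantile normalization. Decr1 (Entrez Gene 117543), which prepares unsaturated fatty acids for oxidation, measured 8.97, 9.12 and 9.55 in treated livers and 8.91, 8.73, 8.60 and 8.45 in controls, without overlap. Cpt1a (Entrez Gene 25757), the gate of fatty acid entry into mitochondria, measured 10.96, 11.27 and 11.45 against 10.98, 10.73, 10.53 and 10.78, with 7 of 8 treated livers above every control. Their log2 fold changes were 0.51 ± 0.14 and 0.47 ± 0.14, and 0.40 ± 0.16 and 0.41 ± 0.15 with the array spread. Acot2, a mitochondrial acyl-CoA thioesterase, had 0.42 ± 0.14 and Pex11a, which divides peroxisomes, 0.37 ± 0.13 (0.24 ± 0.14 with the array spread).

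Lipid synthesis was mixed. Of 18 lipogenic genes 2 were higher and 1 lower at an unadjusted p under 0.05, with a median of -0.042 (0.050 after centring the array medians). The higher pair were the phosphatidate phosphatases Lpin2 and Lpin1. Lpin1 measured 10.59, 11.26 and 12.15 in treated livers and 11.73, 10.27, 9.64 and 9.71 in controls, so that control 1 again lay among the treated livers. For this gene the log2 fold change was 0.97 ± 0.36 and 1.43 without control 1. Pnpla3, a lipase of lipid droplets that insulin and SREBP-1c induce, had -0.71 ± 0.33 and -1.13 ± 0.35 with the array spread, and Acly, which supplies cytosolic acetyl-CoA, -0.30 ± 0.15. Treated livers of both overlapped the controls.

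Cholesterol synthesis leaned to the lower side. Of 20 measured genes 4 were lower and 1 higher at an unadjusted p under 0.05, and 5 were above 0. The median was -0.12, -0.25 with the array spread, -0.14 after quantile normalization and -0.023 after centring the array medians. Msmo1 (Entrez Gene 140910), a sterol demethylase, measured 10.37, 10.88 and 11.15 in treated livers and 11.17, 11.19, 11.38 and 11.46 in controls, narrowly without overlap. Between the groups the log2 fold change was -0.50 ± 0.16, with -0.41 for naproxen and -0.59 for NO-naproxen. Sqle, squalene epoxidase, had -0.50 ± 0.20 and Mvd, of the mevalonate pathway, -0.38 ± 0.16. The higher gene was Ggps1, which makes the prenyl donor of protein prenylation, at 0.54 ± 0.21 and 0.18 ± 0.19 with the array spread.

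In bile acid synthesis Cyp7a1 (Entrez Gene 25428), the rate-limiting enzyme, measured 9.63, 10.08 and 11.10 in treated livers and 10.94, 10.97, 10.83 and 11.11 in controls. The controls lay close together, and 6 of 8 treated livers lay below all of them, the exceptions being NO-naproxen 2 and NO-naproxen 3. Across the 12 livers the log2 fold change was -0.73 ± 0.25 (adjusted p = 0.273) and -0.84 ± 0.29 with the array spread. It was -1.06 for naproxen and -0.40 for NO-naproxen, which the pooled value averages. The difference between the drugs was 0.66 (95% interval 0.13 to 1.18) and did not pass the adjusted limma test. Over the 20 genes of the list the median was -0.040 (0.052 after centring and 0.035 with the array spread), with 3 higher and 1 lower at an unadjusted p under 0.05. Acox2, a peroxisomal oxidase of bile acid side chains, was higher without overlap at 0.37 ± 0.13. Akr1c14 had 0.41 ± 0.17 (0.23 ± 0.18 with the array spread and 0.25 without control 3), and Abcg5, the subunit of a sterol exporter, 0.86 ± 0.37.

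Among drug-sensing receptors and the cytochrome P450 enzymes they control, more members passed the unadjusted threshold than among all genes, while the median did not stand apart. Of 25 measured genes 7 were higher and 0 lower at an unadjusted p under 0.05, or 28% of the list against the 9.05% above, and 3 were higher with the array spread. The median was 0.099 (0.12 with the array spread and 0.11 after quantile normalization), with 16 above 0, or 64%, against 0.095 and 62.4% over the named genes above the olfactory receptor range. Nr1i3 (Entrez Gene 65035), the receptor CAR that induces P450 genes, measured 9.05, 9.92 and 10.64 in treated livers and 9.12, 9.45, 8.83 and 9.36 in controls, with 7 of 8 treated livers above every control. Treated over control, the log2 fold change was 0.77 ± 0.23 and 0.57 ± 0.26 with the array spread. Ahr, the aryl hydrocarbon receptor, had 0.62 ± 0.18, with control 1 at 10.47 among the treated livers. Its target Cyp1a1, named outside the rule, was in the olfactory receptor range, with a log2 fold change of -0.085. Cyp3a2 (Entrez Gene 266682), an enzyme of steroid and drug oxidation, measured 7.35, 7.54 and 8.66 against 6.83, 7.49, 5.84 and 6.73. For this gene the log2 fold change was 0.99 ± 0.27 but 0.51 ± 0.25 with the array spread. Cyp3a18 had 0.89 ± 0.30 and 0.77 ± 0.37 with the array spread. The P450 genes of the list are close relatives, and probes of a whole-transcript array may not separate them fully.

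Conjugating enzymes and transporters showed little. Of 21 transferases 3 were higher and 1 lower at an unadjusted p under 0.05, with a median of 0.11 (0.072 after quantile normalization). Only the lower gene met the study's criterion, and none was lower at an unadjusted p under 0.05 with the array spread. Log2 fold changes in the list ran from -0.63 to 0.61. The glutathione transferase Gstp1 had 0.34 ± 0.14, the sulfotransferase Sult2a2 0.53 ± 0.23 and the glucuronosyltransferase Ugt2b35 0.32 ± 0.14. Without control 3 Sult2a2 had 0.25. In the fit with the array spread Gstp1 had 0.19 ± 0.15, Sult2a2 0.082 ± 0.20 and Ugt2b35 0.39 ± 0.16. Of 15 transporters of organic ions and of the ABC family 0 were higher or lower, with a median of 0.10 (-0.025 with the array spread). Slc47a1, the exporter MATE1, had -0.31 ± 0.17, and -0.025 ± 0.16 with the array spread. The uptake carrier Slco1a4 had 0.37 ± 0.23, and 0.11 ± 0.24 with the array spread, 0.18 without control 3 and 0.55 without control 2.

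Among targets of NRF2, the regulator of antioxidant defence, Hmox1 and Nqo1 had the smallest p. Of 23 measured genes 3 were higher and 0 lower at an unadjusted p under 0.05, with a median of 0.14 (0.12 with the array spread and -0.00025 after quantile normalization). Hmox1 (Entrez Gene 24451), the enzyme of heme breakdown, measured 7.85, 8.37 and 8.75 in treated livers and 8.10, 7.83, 7.69 and 7.92 in controls. Nqo1 (Entrez Gene 24314), a quinone reductase, measured 7.90, 8.24 and 8.56 against 7.81, 7.61, 8.11 and 7.75. For Hmox1 7 and for Nqo1 6 of 8 treated livers were above every control. Their log2 fold changes were 0.48 ± 0.16 and 0.45 ± 0.16, and 0.40 ± 0.18 and 0.52 ± 0.18 with the array spread. Nfe2l2, which encodes NRF2 and was named outside the rule, had 0.013, and -0.11 with the array spread.

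The cyclooxygenases, which naproxen inhibits, stood on opposite sides of 0, and neither passed the adjusted test. Ptgs1 (Entrez Gene 24693), the constitutive cyclooxygenase, measured 8.20, 8.60 and 9.0 in treated livers and 8.51, 8.27, 8.24 and 8.06 in controls, a log2 fold change of 0.32 ± 0.15 (95% interval -0.0019 to 0.64). Ptgs2 (Entrez Gene 29527), the inducible form, measured 6.61, 7.11 and 7.50 against 7.58, 6.99, 7.98 and 7.80. Control 2 was the lowest control, and the log2 fold change of -0.45 ± 0.19 was -0.65 without it and -0.11 ± 0.18 with the array spread. Of 31 genes of prostaglandin and leukotriene metabolism and signalling 1 was higher and 1, Ptgs2, lower at an unadjusted p under 0.05, with a median of 0.081 (0.068 after quantile normalization and 0.042 with the array spread). The higher gene was Hpgds, a prostaglandin D synthase, at 0.50 ± 0.20 and 0.093 ± 0.16 with the array spread. Ptger4, a receptor of prostaglandin E that lay in the olfactory receptor range, had a pooled value of -0.55 ± 0.27. It had -0.97 with naproxen and -0.13 with NO-naproxen. The difference of 0.84 (95% interval 0.33 to 1.34) did not pass the adjusted test, and naproxen 2 measured only 4.02.

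The nitric oxide genes gave no shared shift. Nos2 (Entrez Gene 24599), the inducible synthase, measured 5.22, 6.33 and 7.10 in treated livers and 6.89, 5.48, 7.34 and 7.11 in controls. Between the groups the log2 fold change was -0.38 ± 0.32, and 0.21 ± 0.29 with the array spread, so its direction was not settled. Without control 2 it was -0.79, and without control 3, control 4 or naproxen 3 it was -0.16, -0.24 and -0.22. Nos3 (Entrez Gene 24600), the endothelial synthase, had -0.16 ± 0.13, -0.11 ± 0.14 with the array spread and -0.10 without control 3. Of 18 nitric oxide and cyclic GMP genes 2 were higher and 0 lower at an unadjusted p under 0.05, with a median of 0.033 (-0.013 with the array spread). They were Nostrin, which moves endothelial synthase off the membrane, at 0.60 ± 0.19, and Gucy1a1, a subunit of the guanylate cyclase that nitric oxide activates, at 0.63. Adding the array spread, Nostrin had 0.38 ± 0.21 and Gucy1a1 0.074.

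Mitotic genes had more higher than lower members. Of 27 measured genes, 17 of them above the olfactory receptor range, 6 were higher (22.2%) and 1 lower at an unadjusted p under 0.05. The shares were 9.05% higher and 8.29% lower among named genes above that range, and 6.03% and 10.8% over all probe sets. Without control 2, 4 were higher and 1 lower. The pooled median was 0.12, 0.28 with the array spread and 0.21 after quantile normalization. The median was 0.22 with naproxen and 0.049 with NO-naproxen, a difference that was not tested for the list. Tpx2 (Entrez Gene 311546), a spindle factor, measured 6.65, 7.17 and 7.52 in treated livers and 7.06, 6.27, 6.41 and 6.02 in controls, a log2 fold change of 0.72 ± 0.19. Mki67 (Entrez Gene 291234), the proliferation marker, measured 7.36, 7.14, 7.08 and 6.87 with naproxen, 6.30, 6.71, 6.68 and 5.15 with NO-naproxen and 6.62, 6.03, 5.66 and 5.72 in controls. All naproxen livers were above all controls, while the NO-naproxen livers spread across the controls, and the pooled log2 fold change was 0.66 ± 0.32. Ect2, of cytokinesis, had 0.73 ± 0.25, the topoisomerase Top2a 0.79 ± 0.30 and Hmmr, in the olfactory receptor range, 0.64 ± 0.20. Control 1 was the highest control for Mki67, Tpx2, Ect2, Top2a and Hmmr. Of 22 genes of S phase entry and replication 1 was higher and 2 lower, with a median of 0.090 (0.047 with the array spread). Ccne1, cyclin E1, had -0.50 ± 0.16 and the thymidylate synthase Tyms 0.53 ± 0.19 (0.25 ± 0.19 with the array spread).

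Most genes of oxidative phosphorylation had a log2 fold change above 0, and few passed the unadjusted threshold. Of 43 measured genes 40 were above 0, against 62.4% of the named genes above the olfactory receptor range, and 4 were higher and 0 lower at an unadjusted p under 0.05. The median was 0.17, 0.20 with the array spread and 0.050 after quantile normalization, where 33 were above 0. Over the brightest 4855 probe sets, with mean log2 signals from 8.145 up, the median was 0.15, and 0.017 with the array spread. Without the covariate the list thus lay close to probe sets of like brightness. The mean log2 signal of the list ran from 9.29 to 9.69 in treated livers and from 9.25 to 9.44 in controls, so that the groups overlapped. Ndufv2 (Entrez Gene 81728), a core subunit of complex I, measured 9.15, 9.34 and 10.04 against 8.94, 9.0, 8.77 and 8.56, without overlap. Treated over control, the log2 fold change was 0.61 ± 0.17 and 0.36 ± 0.17 with the array spread. The cytochrome c oxidase subunit Cox7b had 0.73 ± 0.28 and 0.26 ± 0.26 with the array spread, the ATP synthase subunit Atp5me 0.38 ± 0.15 (0.17 ± 0.15 with the array spread) and Ndufs1 0.33 ± 0.13.

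Stress, amino acid and inflammatory lists gave few members past the unadjusted threshold. Heat shock chaperones had 1 higher and 1 lower of 14, with a median of 0.12 (-0.069 with the array spread), and Dnaja1, a partner of HSP70, had 0.34 ± 0.14. Genes of the unfolded protein and integrated stress responses had 0 higher and 1 lower of 25, with a median of 0.082 (0.045 with the array spread). That gene was Phgdh, of serine synthesis, in the olfactory receptor range at -0.52 ± 0.17, and -0.29 ± 0.17 with the array spread. Amino acid catabolism had 3 higher and 1 lower, Csad, of 30, with a median of 0.052 (0.014 with the array spread). Otc, of the urea cycle, had 0.39 ± 0.14 without overlap (0.26 ± 0.15 with the array spread) and Kynu, of tryptophan breakdown, 0.35 ± 0.14. Acute phase and interleukin 6 signalling had 3 higher and 0 lower of 27, with a median of -0.0023 (0.090 after centring the array medians). These 3 were the antagonist Il1rn at 0.86 ± 0.25, the receptor Il6r at 0.64 ± 0.25 and the factor Stat3 at 0.36 ± 0.15, and for each control 1 lay among the treated livers. Il1rn had 0.51 ± 0.25 with the array spread, and Il6r 0.99 without control 1.

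Markers of the cells other than hepatocytes leaned higher by sign for macrophages and, only without the array spread, for endothelium. In liver RNA, fewer cells of a type and less RNA per cell cannot be told apart. Of 21 Kupffer cell and macrophage markers, all above the olfactory receptor range, 20 were above 0 (95.2%) and 3 were higher at an unadjusted p under 0.05 (14.3%). Among all named genes above that range the shares were 62.4% and 9.05%. With the array spread 17 of the 21 were above 0, against 52.2% of those genes. The median was 0.26, 0.18 with the array spread and 0.16 after quantile normalization. The mean log2 signal of the list ran from 8.75 to 9.39 in treated livers and from 8.56 to 9.04 in controls. Vsig4, through which Kupffer cells bind complement, had 0.43 ± 0.15, Csf1r, the receptor of colony stimulating factor, 0.42 ± 0.18 and Ptprc, the pan-leukocyte CD45, 0.54 ± 0.23. In the fit with the array spread Ptprc had 0.12 ± 0.20, Csf1r 0.18 ± 0.18 and Vsig4 0.31 ± 0.17. Of 12 endothelial markers 11 were above 0 and 3 higher at an unadjusted p under 0.05, with a median of 0.29. With the array spread 6 were above 0 and 1 was higher, with a median of 0.053. Oit3, of sinusoidal endothelium, was higher without overlap at 0.36 ± 0.13. Of 15 stellate cell and fibroblast markers 2 were higher and 1 lower, with a median of 0.15 and 0.026 with the array spread. The pericyte gene Rgs5 had 0.64 ± 0.17 without overlap and the collagen Col4a1 0.32 ± 0.13, and with the array spread 0.36 ± 0.16 and 0.21 ± 0.14. The part of these cells in the other results was not tested.

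The remaining markers were dim or few. Of 10 neutrophil markers 4 lay above the olfactory receptor range, and the median of -0.25 was 0.12 with the array spread. The collagenase Mmp8 was lower at -0.52 ± 0.15 and -0.28 ± 0.15 with the array spread. Of 14 lymphocyte markers 1 was higher and 2 lower, with a median of -0.11 (0.046 with the array spread and 0.025 after quantile normalization). Of 6 cholangiocyte markers 1 was higher, with a median of 0.13 (0.051 with the array spread). The 3 erythroid markers had a median of 0.042 (-0.11 after quantile normalization and -0.073 without control 1). Of 9 markers of pancreatic acinar cells, a neighbouring tissue, 0 were above 0 and 2 were lower, with a median of -0.23 (-0.17 after quantile normalization and -0.020 with the array spread). The elastase Cela2a measured 4.28 in naproxen 3 and between 6.63 and 7.39 in the other treated livers, against 7.50, 7.39, 7.55 and 7.69 in controls, a log2 fold change of -0.84 ± 0.41. It was -0.50 without naproxen 3 and -0.50 ± 0.48 with the array spread.

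**Figure D5:**
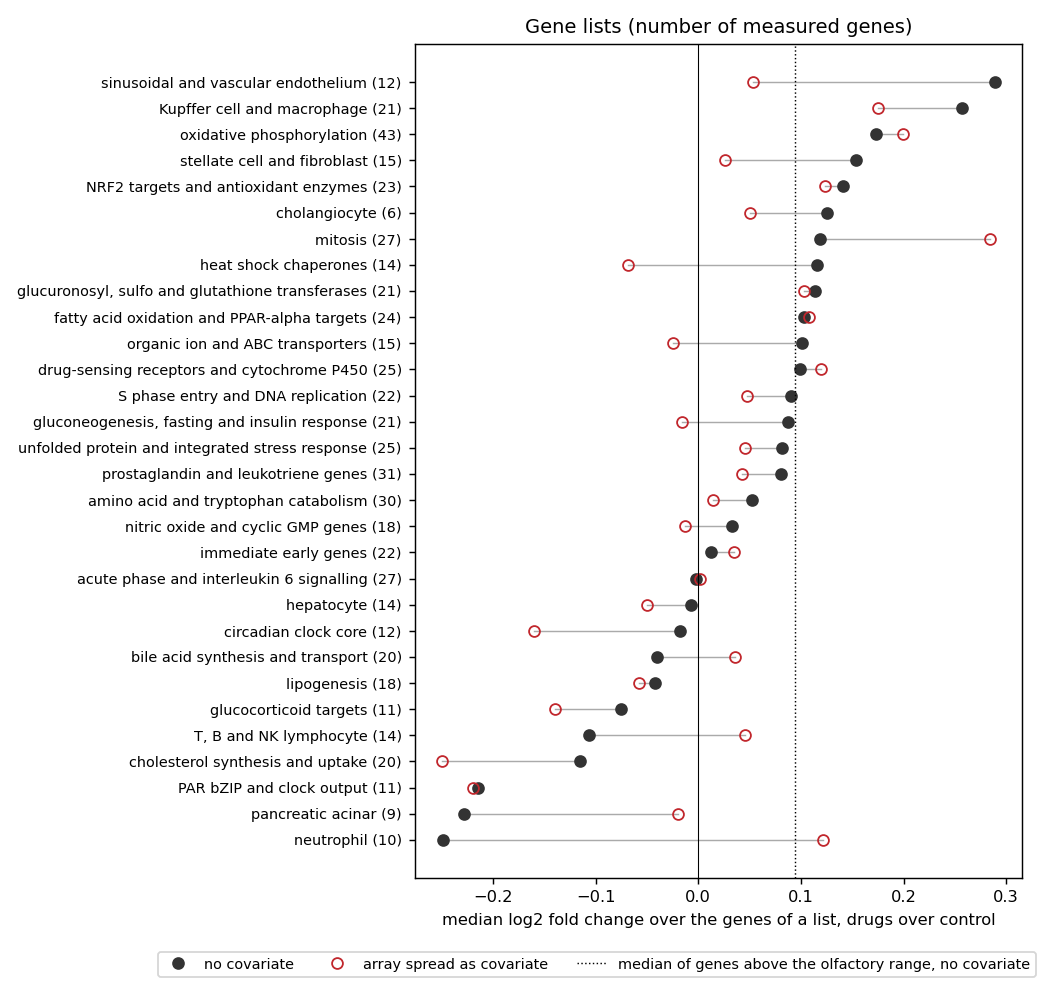
Median log2 fold change, both drugs over control, of 22 pathway lists and of 8 lists of cell type markers (x axis), with the number of measured genes in parentheses; black points are the fit without covariate, open red points the fit with the array interquartile range, and the dotted line is the median of the 9833 named genes above the olfactory receptor range, 0.095. The erythroid list, with 3 measured genes, is not drawn. The endothelial median moves from 0.29 to 0.053 and the neutrophil median from -0.25 to 0.12 with the covariate, while oxidative phosphorylation (0.17 and 0.20) and clock output genes (-0.21 and -0.22) stay in place.

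Whether the drugs differed was examined as its own contrast, NO-naproxen minus naproxen, at the unequal doses of 550 and 400 mg/kg diet. No probe set passed the adjusted limma test (0%, smallest adjusted p = 1.00), and 373 (1.92%) had an unadjusted p under 0.05, 248 higher (1.28%) and 125 lower (0.644%) with NO-naproxen. The study's criterion was met by 111 (0.572%), 83 higher (0.427%) and 28 lower (0.144%). These splits depended on scaling: at an unadjusted p under 0.05 there were 198 higher and 253 lower after quantile normalization and 199 and 219 after centring the array medians, and at the criterion 51 and 46, and 55 and 46. With the array spread as covariate 970 probe sets had an unadjusted p under 0.05, 753 higher and 217 lower, and 145 met the criterion. The median standard error of this difference was 0.21, so small differences could not be seen. For the leading genes the interval of the difference held 0 and was wide. It was -0.35 to 0.75 for Arrdc3, -0.42 to 0.39 for Hykk, -0.73 to 0.53 for Ppargc1a, -0.54 to 0.86 for Slc25a25, -0.87 to 0.89 for Nr1d1 and -0.22 to 1.09 for Per2 (log2 units, 95%). These intervals do not show that the drugs act alike. Among the genes above the olfactory receptor range, the naming rule took, on the higher side, Dffa, the inhibitor of the apoptotic DNase, Emp2, Cdk2ap2 and Mroh2a. Dffa measured -0.34 with naproxen and 0.34 with NO-naproxen against the shared controls, a difference of 0.68 (95% interval 0.32 to 1.03). On the lower side stood Mki67 with a difference of -0.90 (95% interval -1.54 to -0.26), Shox2, Pip5k1b and Fbxl8. Genes on both sides were taken for the smallest p in this contrast, and none passed the adjusted test. An unadjusted interval that leaves out 0 follows from that choice and is no evidence that the drugs differ.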

How the data were processed

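Liver RNA of 12 rats was hybridised to 1 Affymetrix array each. The deposited values are linear probe set intensities made by the authors with Affymetrix Expression Console 1.1.1 (build rn4), per the submitters' processing notes; no source used here states their normalization. Of 19418 probe sets, 13327 carried 1 gene symbol, 620 several and 5471 none; 13232 matched RefSeq, and genes took the probe set of highest mean. Values were analysed as log2(intensity + 16) with limma 3.58.1 in R 4.3.3 (lmFit, eBayes), Benjamini-Hochberg over all probe sets, without and with each array's interquartile range as covariate; the drugs were contrasted in a fit of 3 diets. Adjusted p values are limma's throughout. Code was tested on simulated data. The members, gene lists and alternatives were chosen with earlier results of these data known.

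Genes were named where they lay above the olfactory receptor range, had an unadjusted p under 0.05, at least a 1.5-fold difference and no overlap, to at most 12 a side by p, at most 6 a side with the spread, up to 4 genes of smallest p per list and per direction of the drug contrast, and 11 genes in any case (Ptgs1, Ptgs2, Nos2, Nos3, Hmox1, Nqo1, Nr1i3, Cyp7a1, Nr1d1, Per2, Mki67); genes named outside this rule were chosen after their values were seen. Alternatives covered the added constant, scaling, dim probe sets, variance model, array weights, probe sets per gene, covariates, a replicate block and leaving out each array. Same-numbered animals were not tied by any label, and their correlations ran from -0.38 to 0.48. The number of arrays limits the precision. No labelled batch was given.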

Additional observations from a re-analysis of the deposited data

Results flagged for a closer look

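In 15 of 212 groups of livers tested, 1 sample stood apart from the rest of its group by Dixon's criterion, which chance meets in about 1 group of 20. Of these, 7 were control 1. It had 9.38 for Upp2 (other controls 7.90 to 8.01), 7.15 for Per2 (8.41 to 8.60), 9.63 for Zbtb16 (7.57 to 7.90) and 10.28 for Klf9 (9.43 to 9.51). It also had 7.46 for Mvd (7.93 to 8.0), 5.56 for Hmmr (4.76 to 4.88) and 9.81 for Cdk2ap2 (9.21 to 9.30). Control 2 had 9.37% of probe sets under an intensity of 16 (other controls 5.87% to 6.11%) and 11.03 for Tdo2 (11.45 to 11.52).

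Among treated livers, naproxen 3 had 9.69 for Tspan4 (others 10.07 to 10.37) and 4.28 for Cela2a (6.63 to 7.39). NO-naproxen 2 had 9.05 for Foxo3 (8.47 to 8.70) and 11.03 for Ahr (10.16 to 10.56). Naproxen 1 had 12.31 for Akr1c14 (11.66 to 11.96) and 7.05 for Gstp1 (6.60 to 6.81).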

How the results depend on the processing

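Without a covariate the adjusted limma test called 1 probe set after quantile normalization, 3 with a trended robust variance and 2 with array weights. Leaving out single arrays gave 0 to 497, namely 1 without naproxen 1, 5 without control 1 and 497 without control 2. The study's criterion, met by 806, was met by 1320 with an added constant of 1, 150 with 64, 1292 with array weights, 518 with 1 probe set per gene, 196 without controls 3 and 4 and 75 at 2-fold. It was met by 178 with the interquartile range, 206 with the array median and 209 with the share of probe sets under 16 as covariate, and by 356 to 2618 without single arrays.

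With the array spread, 1 probe set was called with a constant of 64, without the dimmest 30% of probe sets, with array weights and with 1 probe set per gene, and 0 to 2 without single arrays. The criterion, met by 178, was met by 370 with a constant of 1, 39 with 64, 95 without the dimmest, 97 with 1 probe set per gene, 391 with the replicate block, 21 at 2-fold and 144 to 376 without single arrays. Without the spread the replicate block gave 0 calls and 834 at the criterion; the replicate numbers do not pair the livers. For the drug contrast, 111 at the criterion became 299 and 8 with constants of 1 and 64, 40 without the dimmest, 304 with array weights, 55 with 1 probe set per gene, 3 at 2-fold and 98 to 331 without single arrays. Probe sets without overlap numbered 277 after centring and 205 to 1582 without single arrays. The difference in array spread was 0.20 to 0.34 without single arrays.

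For 96 described genes the pooled comparison gave 2398 values under alternatives, of which 2365 kept direction and side of the threshold, 30 newly passed and 3 turned; genes named only for the drug contrast or outside the naming rule without a standard error are not among them. These 3 were Nos2, at 0.14 without controls 3 and 4, 0.21 with the interquartile range and 0.13 with the array median as covariate. No gene passed the adjusted test in the main fit, so keeping its side of the threshold meant only that it still did not pass. The tally does not count changes in size, such as that of Sult2a2 from 0.53 to 0.082 with the array spread. Of 527 list medians 488 moved by less than the control spread. That does not show that their directions held, since a median can change sign within that spread. The fasting and insulin response median went from 0.087 to -0.015 with the array spread, and the SD of that list's mean over the controls was 0.256. Except where fewer arrays or probe sets enter by construction, the cause was not tested.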
